A study of Mus musculus with 6 samples.

Results

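Respiratory complex I is the largest enzyme of the mitochondrial respiratory chain. Its nuclear genes carry the *Nduf* symbols, and they were read here in acinar mammary tumors and in control mammary glands of the mouse. The genes were chosen by symbol: every gene named *Ndufa*, *Ndufb*, *Ndufc*, *Ndufs*, *Ndufv*, *Ndufab* or *Ndufaf* with a number was taken, whatever its level or change. The rule found 43 genes of the 18193 genes that the array annotation gives 1 symbol, and these were 35 subunits and 8 assembly factors. 34 subunits and all 8 assembly factors reached the signal needed for a test, among 12518 genes tested. *Ndufb4*, a subunit of the membrane arm, did not, with signals of 57.2, 73.1 and 53.1 in the tumors, against 29.8, 87.8 and 35.1 in the control glands. It was read by 1 probe set only. Whether the transcript is scarce or the probe set reads it poorly was not tested. *Ndufs6* and *Ndufa11* are not analysed here, because the annotation gives them no probe set with 1 symbol.

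The tumors were 3 mammary tumors with acinar histology from *K14-cre*; *Apc* CKO/+ mice, and the control glands were 3 mammary glands of age-matched mice without *cre*. In these mice a *Keratin 14* promoter drives Cre, which deletes part of the floxed *Apc* allele. That promoter is active in progenitor cells of the basal and luminal mammary lineages, so the deletion is not directed to 1 of them. Each tumor carried the deleted allele on 1 chromosome and a truncating *Apc* mutation on the other. The mice were of a mixed genetic background. By their labels the samples of a group are biological replicates, but neither their age nor whether they were taken from separate mice is stated. P-values therefore measure the spread between these samples, part of which may come from within 1 mouse.

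Complex I takes electrons from NADH, passes them along iron-sulfur clusters to ubiquinone and pumps protons out of the matrix. A peripheral arm holds the N module, which binds NADH, and the Q module, which reduces ubiquinone. A membrane arm, with a proximal and a distal part, holds the proton channels. A small set of core subunits does the chemistry, some encoded in the mitochondrial genome and the rest in the nucleus, and is surrounded by accessory subunits. Assembly factors help to build the modules and to join them, and are not part of the finished enzyme. Genes of the respiratory chain are known targets of the transcription factors NRF1, GABPA (an ETS factor), YY1 and the estrogen-related receptors, together with coactivators of the PGC-1 family.

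RNA of each sample was read on 1 Affymetrix GeneChip array, 6 arrays in all. Each gene is read by 1 or more probe sets, and a level is the MAS 5.0 signal of the gene's brightest probe set, on a linear scale in arbitrary units. Signals were comparable between arrays for 1 probe set and not between genes. The median signal of all probe sets was 124 to 138 in tumors and 133 to 171 in control glands. Marker lists of cell types differed between the groups. All 6 epithelial markers were higher in tumors, with a summed signal of 64526 to 84889 in tumors and 9788 to 22345 in control glands. All 4 markers of white fat that could be tested were lower, with sums of 1179 to 10367 in tumors and 85370.2 to 118691 in control glands. All 5 fibroblast markers, all 4 endothelial markers, 3 of 5 brown fat markers and 1 of 4 macrophage markers were lower, and 3 of 3 proliferation markers were higher. Lower and higher here mean an adjusted p under 0.05 by limma. By that rule 16.8% of all genes tested were lower and 16.3% higher, so 1 of 4 macrophage markers is not read as a difference. Of 7 skeletal muscle markers none passed the test, and their sum was 29651, 2224 and 1405 in the tumors, against 5053, 137844 and 46812 in the control glands. In bulk tissue, fewer cells of a type and less RNA per cell cannot be told apart.

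Sequence near the transcription start was read for 39 of the 43 genes, from RefSeq on the build GRCm38.p6, as 300 bases around a listed start, 250 before it and 50 after it. *Ndufs1*, *Ndufa2*, *Ndufb9* and *Ndufaf6* had no listed start and were not searched. *Ndufa5* and *Ndufa7* had 2 listed starts each, the other genes 1, and a gene was counted once if any of its windows held the letters. Motifs were searched on both strands. The letters AAGATGGC, those of a YY1 site, were found in 7 of the 39 genes (17.9%), against 3.19% of 27025 genes. They are shown because *Yy1* itself was higher in tumors, a choice made after its value was seen. *Esrrg*, an estrogen-related receptor, was higher too, and windows with the letters of its site are not shown. The letters AAGATGGC lay 10 to 38 bases after the start. The motif holds the letters ATG, and whether it coincides with the start codon was not tested. Each line gives 30 bases in the gene's own direction, with the motif in capitals.
*Ndufa3* (chr7:3617384-3617413, + strand): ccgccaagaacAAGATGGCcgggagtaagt
*Ndufa9* (chr6:126849097-126849126, - strand): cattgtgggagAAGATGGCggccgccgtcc
*Ndufaf8* (chr11:120098933-120098962, + strand): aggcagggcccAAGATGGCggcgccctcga
*Ndufb8* (chr19:44555393-44555422, - strand): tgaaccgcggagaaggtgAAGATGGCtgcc
*Ndufc1* (chr3:51408915-51408944, - strand): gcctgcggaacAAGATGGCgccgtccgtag
*Ndufs4* (chr13:114388045-114388074, - strand): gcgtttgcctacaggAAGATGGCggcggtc
*Ndufs7* (chr10:80249462-80249491, + strand): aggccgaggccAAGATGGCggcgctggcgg

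The letters of an NRF1 site, GCGCA, any base and GCGC, were found in 7 of the 39 genes (17.9%), against 5.19% of all genes. They are shown for the 6 of these genes that were tested, with the motif in capitals, and *Ndufb4* held the letters at 3 places. In *Ndufa6* and *Ndufa8* the capitals are the motif read on the opposite strand.
*Ndufa5* (chr6:24527697-24527726, - strand): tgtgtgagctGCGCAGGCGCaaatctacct
*Ndufa6* (chr15:82354249-82354278, - strand): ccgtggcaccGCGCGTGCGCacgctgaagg
*Ndufa8* (chr2:36049349-36049378, - strand): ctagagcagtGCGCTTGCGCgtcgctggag
*Ndufaf4* (chr4:24897960-24897989, + strand): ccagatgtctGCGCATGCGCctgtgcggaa
*Ndufaf5* (chr2:140170652-140170681, + strand): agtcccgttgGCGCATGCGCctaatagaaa
*Ndufs5* (chr4:123718265-123718294, - strand): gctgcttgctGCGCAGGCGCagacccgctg

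The letters CCGGAAG of an ETS site were in 6 genes (15.4%, against 9.93% of all genes), and AAGGTCA of an estrogen-related receptor site was in 3 (7.69%, against 5.38%). No match of 1 motif overlapped a match of another. The windows of the complex I genes had a median GC content of 59.7%, against 52.7% over all windows, and its part in these shares was not tested. A match is a description of letters and does not show that a factor binds there.

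Few transcripts of complex I passed the test between tumors and control glands. Of the 34 subunits tested, 1 was lower in tumors and 0 were higher, and of the 8 assembly factors 0 were lower and 0 were higher, at an adjusted p under 0.05 by limma over all genes. Among all 12518 genes, 16.8% were called lower and 16.3% higher by the same rule, 33.1% in all. At an unadjusted p under 0.05, 2 subunits were lower and 0 higher, and 0 assembly factors were lower or higher, where 21.5% of all genes were lower and 23.4% higher. The 2-sample test of the study's methods gave 0 calls among both after adjustment, and unadjusted it gave 1 higher subunit (*Ndufc2*), 2 lower subunits and 0 assembly factors, where 15.5% of all genes were lower and 18.4% higher. The 1 call was *Ndufs1*. The median log2 fold change was -0.03 over the subunits and -0.14 over the assembly factors, against 0.07 over all genes tested. With equal array medians, which raised every estimate by 0.24 and the median of all genes to 0.31, both turned positive, at 0.21 for subunits and 0.10 for assembly factors. The estimate was below 0 for 19 of 34 subunits and 5 of 8 assembly factors, where 46.8% of all genes were. Subunits ranged between -0.998 and 0.75 and assembly factors between -0.51 and 0.78. In 25 of 34 subunits and 6 of 8 assembly factors the estimate was smaller than 0.5 in size. The middle 50% of all genes lay between -0.59 and 0.59.

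A missing call does not show an equal level, and the intervals show the range of differences that the arrays allow. Standard errors of the log2 fold change lay between 0.20 and 0.39 for subunits and between 0.20 and 0.40 for assembly factors. The unadjusted 95% interval lay wholly within a 2-fold difference in either direction for 21 of 34 subunits and 6 of 8 assembly factors. For the other 13 subunits it did not, and the widest reach was 1.53 for *Ndufb2* upward and -1.61 for *Ndufs1* downward. All tumors were below all control glands for 2 subunits (*Ndufs1* and *Ndufb3*) and 1 assembly factor (*Ndufaf3*), where 23.1% of all genes did so. All tumors were above all control glands for 2 subunits (*Ndufs8* and *Ndufc2*) and 0 assembly factors, where 27.1% of all genes did so.

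**Figure D1:**
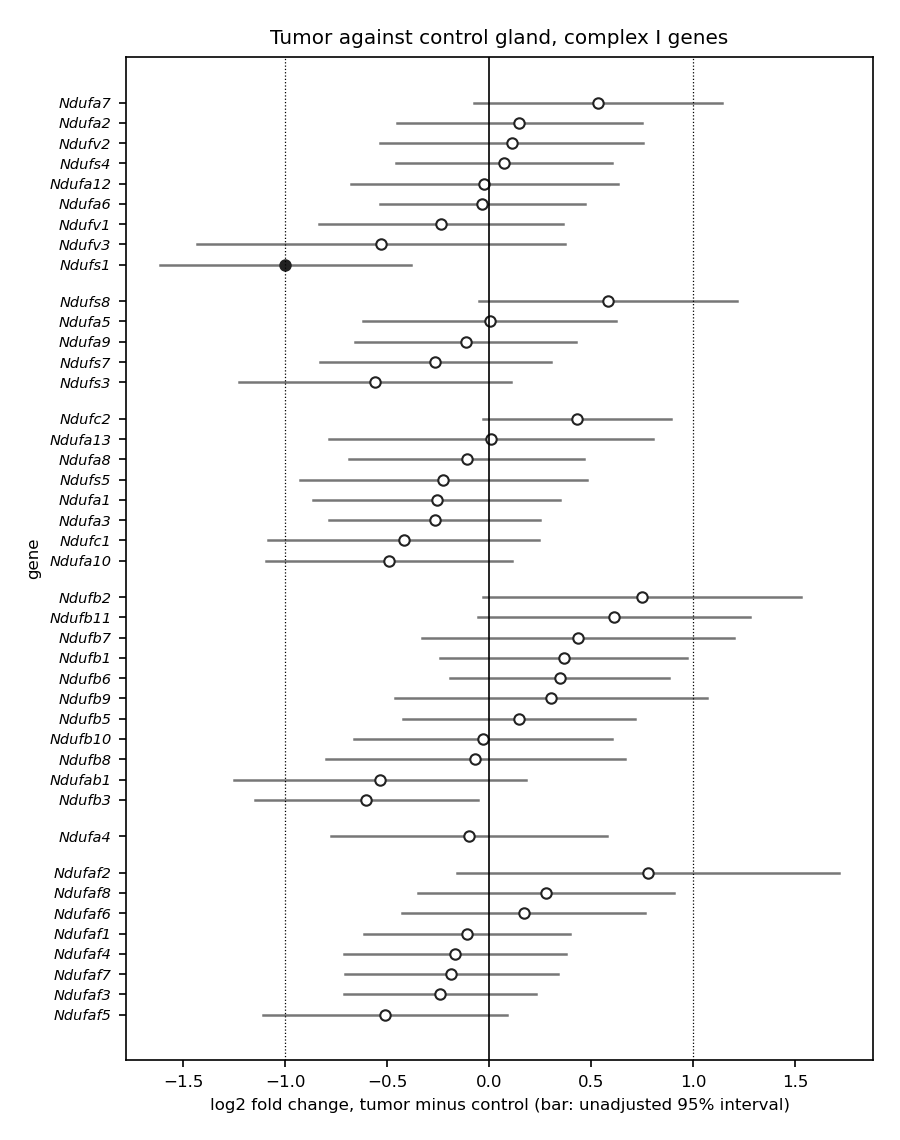
Log2 fold change, tumor minus control, of each tested complex I gene (points), with its unadjusted 95% interval (bars), in blocks from top to bottom: N module, Q module, proximal and distal membrane arm, *Ndufa4*, assembly factors. The filled point marks *Ndufs1*, the 1 gene with an adjusted p under 0.05, the open points did not pass, and the dotted lines mark a 2-fold difference.

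*Ndufs1*, on mouse chromosome 1, encodes the core subunit of the N module that carries most of its iron-sulfur clusters. It had signals of 2183, 1809 and 1605 in the tumors, against 3786, 4763 and 2803 in the control glands. The groups did not overlap, and tumor 1 and control gland 3 lay closest to each other. The mean was 1866 ± 293 in tumors and 3784 ± 980.2 in control glands (SD, n = 3 each), which is a log2 fold change -0.998, standard error 0.26, adjusted p = 0.0248 by limma. The call was lost without control gland 1 (adjusted p = 0.0687), without control gland 2 (0.0680), without tumor 2 (0.0675) and without tumor 3 (0.0732), with the array medians set equal (0.0853), with no filter on low signals (0.0555), by the 2-sample test of the methods (0.110) and without the array of each group with the highest muscle markers (0.0635). Its direction held under the alternatives run in which its probe set was kept, with log2 fold changes between -1.20 and -0.76. It was read by 1 probe set, which is marked a in its name. An alternative left out every probe set marked a, s or x, and so dropped it.

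The other core subunits tested did not pass. *Ndufv1*, which binds NADH and FMN, had signals of 4256, 3976 and 4645 in the tumors, against 4688, 6877 and 3978 in the control glands (log2 fold change -0.24, standard error 0.26, adjusted p = 0.513). *Ndufv2*, its partner with an iron-sulfur cluster, had 6505, 8724 and 6096.5 in the tumors, against 6565, 8540.1 and 4909 in the control glands (log2 fold change 0.11, standard error 0.28, adjusted p = 0.786). For both the tumors lay within the span of the control glands or close to it.

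In the Q module, *Ndufs3*, one of the first subunits to be assembled, had signals of 2631, 3057 and 3391 in the tumors, against 4110.0, 6397 and 3320.4 in the control glands (log2 fold change -0.56, standard error 0.29, adjusted p = 0.171). Tumor 3 lay above control gland 3, and control gland 2 stood apart on the high side. *Ndufs7*, which carries the last iron-sulfur cluster before ubiquinone, had 3602, 4258 and 4726 in the tumors, against 5910.2, 5428 and 3916 in the control glands (log2 fold change -0.26, standard error 0.24, adjusted p = 0.434). *Ndufs8*, which carries a further pair of clusters, had 5211.5, 7753 and 5114 in the tumors, against 4211, 4736 and 3082 in the control glands (log2 fold change 0.58, standard error 0.27, adjusted p = 0.136). For *Ndufs8* every tumor was above every control gland, the opposite order to *Ndufs1*. Of the 6 core subunits tested, 2 had a positive and 4 a negative estimate, with a median of -0.25.

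**Figure D2:**
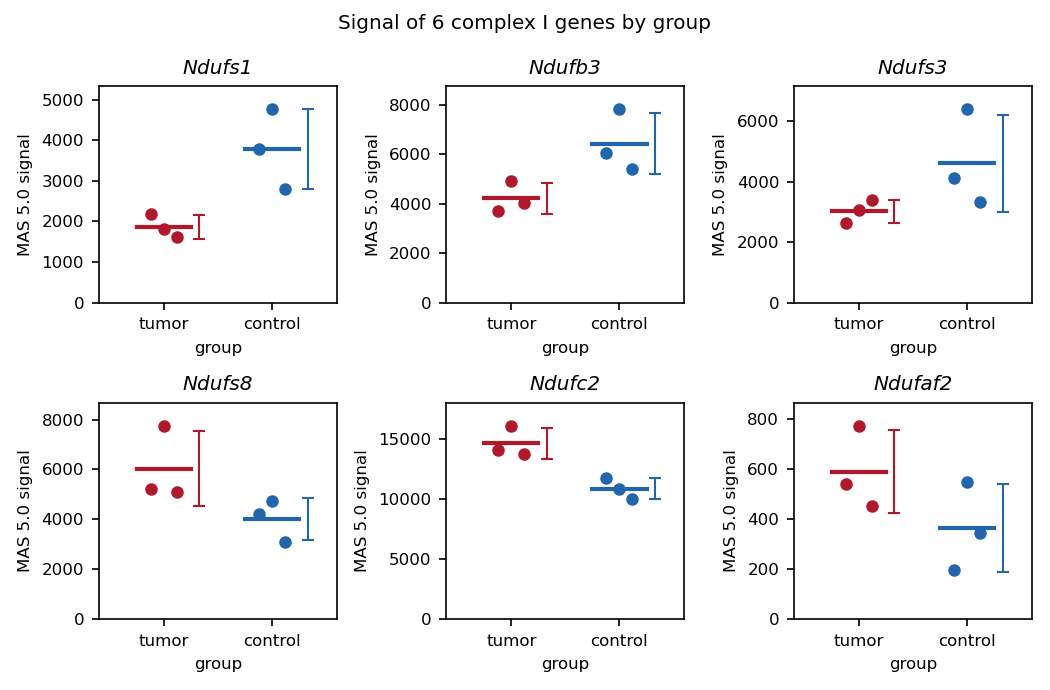
MAS 5.0 signal (arbitrary units, axis starting at 0) of 6 complex I genes, with the 3 tumors at the left and the 3 control glands at the right of each panel. Points are samples in the order 1, 2 and 3, the thick line is the mean and the bar beside it is 1 SD. Only for *Ndufs1*, *Ndufb3*, *Ndufs8* and *Ndufc2* of these 6 do the groups not overlap.

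The accessory subunits gave no call in either direction among 28 tested, with 13 positive and 15 negative estimates and a median of -0.03. In the N module, 9 subunits with the core ones, 1 was lower, and the median was -0.02. *Ndufv3* had signals of 3092, 3836 and 5819.6 in the tumors, against 7283, 8084 and 3533 in the control glands (log2 fold change -0.53, standard error 0.39, adjusted p = 0.325), and the groups overlapped. *Ndufa7* had the highest estimate of the module, with 6898, 10431 and 7337 in the tumors, against 5228, 7004 and 4767.5 in the control glands (log2 fold change 0.53, standard error 0.26, adjusted p = 0.154), where only tumor 1 lay under the highest control gland. The Q module, 5 subunits tested, had a median of -0.12 and no call.

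In the membrane arm the proximal and distal parts had medians of opposite sign. The proximal part, 8 subunits, had a median of -0.24 with 6 negative and 2 positive estimates. The distal part, 11 subunits, had a median of 0.30 with 4 negative and 7 positive. No subunit of either part was called. The distal median was above the proximal one in the main setting, by 0.54, and in all 16 alternatives compared, by 0.28 to 0.54. Of these, floors of 16 and 100 and a filter at 200 left both medians unchanged. Equal array medians raised every estimate alike, so the gap could not change under that setting. With log2 of the signal plus 50 it stayed at 0.54. The proximal median turned to 0.06 without the array of each group with the highest muscle markers. This is a description of medians, with no test, since the parts hold few genes and the same arrays.

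Of the proximal part, *Ndufa10*, an accessory subunit on the matrix side, had 4875, 4762 and 4295 in the tumors, against 8101, 7270.2 and 4706 in the control glands (log2 fold change -0.49, standard error 0.26, adjusted p = 0.180). Tumor 1 and tumor 2 lay above control gland 3, so the groups overlapped. *Ndufc2*, a small membrane subunit, went the other way, with 14047, 16099 and 13732.5 in the tumors, against 11704, 10864 and 10003 in the control glands (log2 fold change 0.43, standard error 0.20, adjusted p = 0.132). Its groups did not overlap, yet the difference did not pass over all genes.

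Of the distal part, *Ndufb3* was the subunit closest to a call after *Ndufs1*, with 3713, 4921 and 4039 in the tumors, against 6077, 7834 and 5422 in the control glands (log2 fold change -0.60, standard error 0.23, adjusted p = 0.0857). Every tumor lay below every control gland. *Ndufab1*, the mitochondrial acyl carrier protein, which also serves fatty acid synthesis, had 3669, 4761 and 2659 in the tumors, against 5423, 6690.2 and 3889 in the control glands (log2 fold change -0.53, standard error 0.31, adjusted p = 0.217), with overlap between the groups. *Ndufb2* had the highest estimate of all subunits, with 4085, 7373 and 5839 in the tumors, against 2840.5, 4945 and 2640.1 in the control glands (log2 fold change 0.75, standard error 0.33, adjusted p = 0.123). Without probe sets marked a, s or x, which left a dimmer one, its estimate was 0.019 (adjusted p = 0.967). Control gland 2 lay above tumor 1, and without control gland 2 and tumor 1, the array of each group with the highest muscle markers, *Ndufb2* passed at 1.26 (adjusted p = 0.0258).

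*Ndufb11* had 11469.8, 18758 and 15976.5 in the tumors, against 12338.5, 10357 and 7514 in the control glands (log2 fold change 0.61, standard error 0.28, adjusted p = 0.136). *Ndufb7* had 4026, 6449.6 and 5969 in the tumors, against 4549, 5219.7 and 2639.6 in the control glands (log2 fold change 0.44, standard error 0.33, adjusted p = 0.339). In both, tumor 1 lay under a control gland while tumors 2 and 3 lay above all of them. *Ndufa4* is counted by its symbol and is now known as a subunit of complex IV, and its signals were 5819.7, 9048 and 6085 in the tumors, against 7025, 9797 and 5728 in the control glands (log2 fold change -0.10, standard error 0.29, adjusted p = 0.816). Without it the subunits had the same calls and the median stayed at -0.03.

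**Figure D3:**
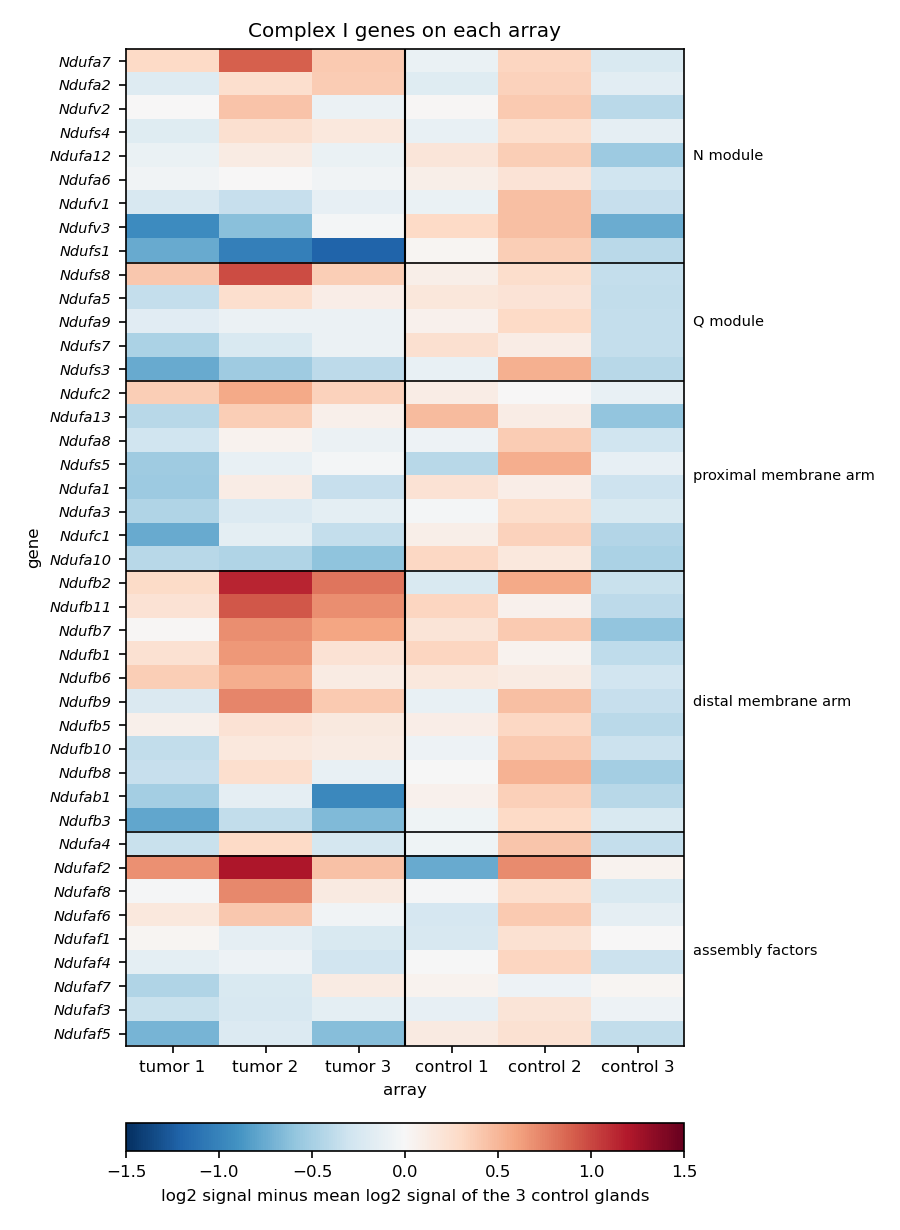
Log2 signal of each tested complex I gene (rows, in blocks by module, *Ndufa4* alone between the distal membrane arm and the assembly factors) on each array (columns, 3 tumors at the left, 3 control glands at the right), minus the gene's mean in the control glands. Red is above and blue below that mean, and control gland 2 is above control gland 3 for 34 of 34 subunits. Most tested genes of the other respiratory complexes have the same order of these glands.

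The assembly factors were all read, and none passed the test. The smallest adjusted p was 0.162 by limma. *Ndufaf5*, which modifies *Ndufs7* protein during assembly, had signals of 253, 356 and 263 in the tumors, against 449, 480.4 and 318 in the control glands (log2 fold change -0.51, standard error 0.26, adjusted p = 0.162). *Ndufaf3*, which binds early Q module intermediates, had 608.5, 647 and 691 in the tumors, against 700.5, 877 and 727 in the control glands (log2 fold change -0.24, standard error 0.20, adjusted p = 0.396). For *Ndufaf3* the tumors lay just under the control glands, without overlap, and for *Ndufaf5* tumor 2 lay above control gland 3.

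*Ndufaf2*, a late factor related in sequence to *Ndufa12*, had the highest estimate of all complex I genes, with 539, 774 and 453.5 in the tumors, against 197, 548 and 346 in the control glands (log2 fold change 0.78, standard error 0.40, adjusted p = 0.172). Control gland 1 was the lowest array and control gland 2 lay above tumors 1 and 3, and the unadjusted 95% interval ran between -0.16 and 1.72. *Ndufaf4*, which works with *Ndufaf3*, had 1269.8, 1334 and 1158 in the tumors, against 1399, 1764 and 1129.5 in the control glands (log2 fold change -0.17, standard error 0.23, adjusted p = 0.610). *Ndufaf1*, which acts on the membrane arm, had 964, 860.0 and 807 in the tumors, against 802, 1105 and 947 in the control glands (log2 fold change -0.11, standard error 0.21, adjusted p = 0.727). Both overlapped between the groups.

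*Ndufaf7*, a methyltransferase that acts during assembly, had 446, 521 and 663 in the tumors, against 631, 578 and 620.5 in the control glands (log2 fold change -0.18, standard error 0.22, adjusted p = 0.555). *Ndufaf6* had 297, 353 and 258 in the tumors, against 223, 351 and 243 in the control glands (log2 fold change 0.17, standard error 0.25, adjusted p = 0.640). *Ndufaf8*, a partner of *Ndufaf5*, had 1724, 2892 and 1919 in the tumors, against 1725, 2087 and 1488 in the control glands (log2 fold change 0.28, standard error 0.27, adjusted p = 0.460). The groups overlapped in all 3, and for *Ndufaf8* the estimate was -0.50 in a second, dimmer probe set.

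Subunits and assembly factors were set beside each other as medians, because the family was chosen with earlier results of these data known. Within it, each gene was taken by its symbol alone. The subunits' median lay 0.11 above that of the assembly factors. This gap was -0.02 after quantile normalization, -0.13 without control gland 3 and 0.29 without the array of each group with the highest muscle markers, so its sign was not stable. Relative to the median of all genes tested, the subunits lay at -0.10 and the assembly factors at -0.21. For the subunits this sign was not stable either: it was 0.030 without control gland 2, 0.0047 without tumor 1 and 0.18 without the array of each group with the highest muscle markers, and it was -0.26 after quantile normalization and -0.39 without control gland 3. For the assembly factors it lay between -0.29 and -0.076 over the settings run. Between samples of a group, the median coefficient of variation was 18.5% in tumors and 25.2% in control glands for subunits. For assembly factors it was 17.7% in tumors and 18.9% in control glands.

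The subunits moved together between arrays of the same group. Control gland 2 was above control gland 3 for 34 of 34 subunits, where 45.0% of all genes were, and control gland 1 was above control gland 3 for 32 of 34, where 49.1% of all genes were. The order of control glands 2 and 3 was not particular to complex I. It held for every tested gene of the lists for complexes II and III, given below. It also held for the ubiquitous complex IV subunits except *Cox7c*, ATP synthase except *Atpif1* and the tricarboxylic acid cycle except *Suclg2*. In the tumors, tumor 1 was above tumor 2 for 3 of 34 subunits, where 54.9% of all genes were. The highest array was control gland 2 for 18 subunits and tumor 2 for 11. The lowest was control gland 3 for 19 and tumor 1 for 11. The subunits' median, on the log2 scale and relative to the control mean, was -0.27, 0.19 and -0.04 in the tumors, against 0.06, 0.33 and -0.36 in the control glands. The spread of these medians within the control glands was thus larger than the difference of -0.03 between the groups.

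Of the assembly factors, control gland 2 was above control gland 3 for 7 of 8, where 45.0% of all genes were, and control gland 1 above control gland 3 for 4 of 8, where 49.1% were. Their medians were -0.08, -0.10 and -0.10 in the tumors, against -0.07, 0.24 and -0.10 in the control glands. Whether the order differs between the 2 classes was not tested. The muscle markers summed to 29651, 2224 and 1405 in the tumors, against 5053, 137844 and 46812 in the control glands, so the control gland with the highest subunits had the highest muscle sum and the one with the lowest had the second highest. The brown fat markers summed to 1226, 1217 and 1947 in the tumors, against 40229, 16260.2 and 4480.3 in the control glands, with the lowest control sum also in control gland 3. The part of these tissues in the order of the arrays was not tested. Without control gland 2 and tumor 1, the subunits' median was 0.25 and 8 of the 42 members changed sign.

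**Figure D4:**
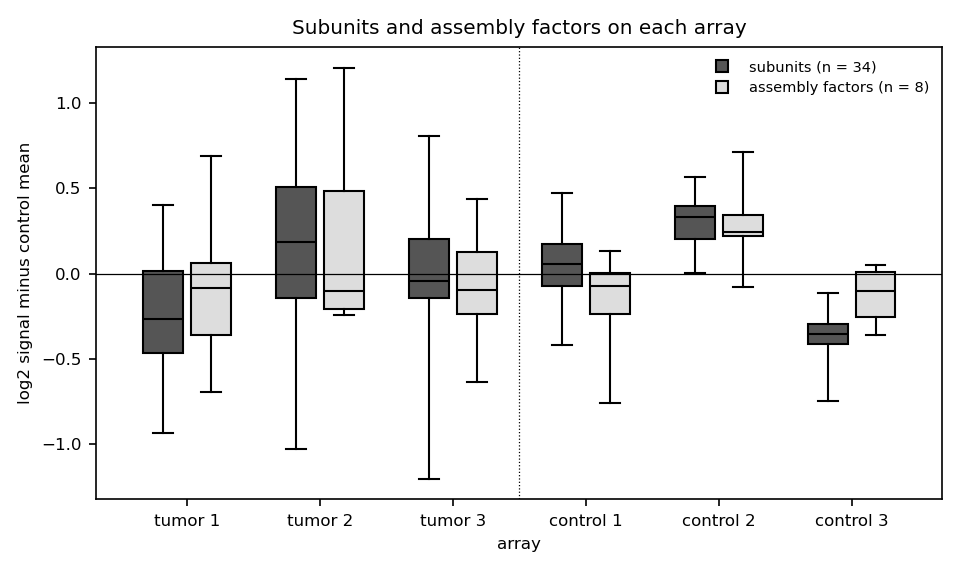
Log2 signal minus the gene's mean in the control glands, for 34 subunits (dark boxes) and 8 assembly factors (light boxes) on each array, tumors at the left and control glands at the right. Boxes span the middle 50% of genes with the median as a line, and whiskers reach the lowest and highest gene. The subunit boxes shift up and down as a whole between arrays of 1 group, with medians of 0.33 in control gland 2 and -0.36 in control gland 3.

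Some genes were read by further probe sets. Of 87 probe sets for the 43 genes, 81 reached the signal limit, and 21 genes had several of these. In 6 genes the estimates of the probe sets differed in sign (*Ndufa12*, *Ndufa5*, *Ndufaf8*, *Ndufb6*, *Ndufs4* and *Ndufs8*), and in none were they called in opposite directions. When all 22492 named probe sets were fitted one by one with limma, 3 of the 81 passed, 1 higher and 2 lower, where 13.3% of all these probe sets were higher and 15.2% lower. These were the probe set of *Ndufs1*, lower, a dim probe set of *Ndufab1*, lower at -1.003 (adjusted p = 0.0229), and a probe set of *Ndufa7*, higher at 1.26 (adjusted p = 0.0118). That *Ndufa7* probe set had signals of 2543, 4537 and 3856 in the tumors, against 1349, 1528 and 1569 in the control glands, and the other 4 of the gene had estimates of 0.38 to 0.66. The called *Ndufa7* probe set and the brightest one are marked x, a kind that can cross-hybridize with related sequences. The *Ndufab1* and *Ndufa7* probe sets were named after their values were seen.

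Other genes that build complex I, which do not carry an *Nduf* symbol, gave 1 higher and 1 lower among 11 tested, where 16.3% of all genes were higher and 16.8% lower, with a median of 0.28. *Acad9*, a factor for the membrane arm that is related to acyl-CoA dehydrogenases, was higher, with 1684, 1905 and 1915 in the tumors, against 919, 554.5 and 890.0 in the control glands (log2 fold change 1.25, adjusted p = 0.00968 by limma). *Foxred1*, a flavoprotein needed in late assembly, was lower, with 244, 204 and 256 in the tumors, against 573, 609.9 and 449.9 in the control glands (log2 fold change -1.21, adjusted p = 0.00636). For both, the 3 tumors lay together and apart from the 3 control glands. Of the 11 tested, 2 had every tumor above every control gland and 2 every tumor below, where 27.1% and 23.1% of all genes did so. The furthest from passing were *Aifm1* at -0.02 (adjusted p = 0.965) and *Ecsit* at -0.03 (adjusted p = 0.912).

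The other respiratory complexes are read beside the same 16.8% of all genes lower and 16.3% higher. Of complex II and its assembly factors, 1 of 8 was lower and 0 higher. That was *Sdha*, its catalytic flavoprotein, with 5383, 4696 and 4291 in the tumors, against 9517, 10262 and 7222 in the control glands (log2 fold change -0.90, adjusted p = 0.0211 by limma), and the median was -0.44. Against this direction, *Sdhaf1* was at 0.56 (adjusted p = 0.0594) and *Sdhaf3* at 0.21 (adjusted p = 0.621). Complex III gave 0 calls among 9 by limma and by the methods' own test after adjustment, with 0 higher and 1 lower at an unadjusted p under 0.05 by limma, where 23.4% of all genes were higher and 21.5% lower. Its lowest member was *Uqcrq* at -0.86 (adjusted p = 0.0556), and the median was -0.21. With the array medians set equal, the medians of complex III and complex IV turn positive, that of complex II stays negative.

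Of the ubiquitous subunits of complex IV, 1 of 9 was lower and 0 higher, and the median was -0.01. *Cox8a* was lower, with 3094, 2945 and 3117 in the tumors, against 5346, 6827 and 4220.5 in the control glands (log2 fold change -0.81, adjusted p = 0.0345 by limma), and *Cox7c*, against it, was at 0.71 (adjusted p = 0.0858). Its tissue isoforms had a median of -1.80, with 1 of 5 lower. *Cox8b*, an isoform of muscle and brown fat, was lower, with 383, 680.4 and 1557 in the tumors, against 9947, 7544 and 2126 in the control glands (log2 fold change -2.87, adjusted p = 0.0179). *Cox7a1*, of the same tissues, had 560.4, 339 and 285 in the tumors, against 2910.4, 2122 and 459 in the control glands (log2 fold change -1.90, adjusted p = 0.0638), and the muscle isoform *Cox6a2* had 779, 267 and 216 in the tumors, against 226, 5547 and 1508 in the control glands (log2 fold change -1.80, adjusted p = 0.241). *Cox8b*, *Cox7a1* and *Cox6a2* also stand in the marker lists for brown fat or muscle.

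ATP synthase gave 3 higher and 0 lower among 16 tested, where 16.3% of all genes were higher and 16.8% lower, with a median of 0.25. *Atpif1*, the inhibitor of its reverse activity, was higher, with 5740.2, 5557 and 4486 in the tumors, against 2065, 1971 and 2400.0 in the control glands (log2 fold change 1.29, adjusted p = 0.00414 by limma). *Atp5g1*, which encodes the c ring subunit, was at 1.16 (adjusted p = 0.0489), and *Atp5g2*, a second gene for the same mature protein, was at 0.74 (adjusted p = 0.0271). The third such gene, *Atp5g3*, was at -0.04 (adjusted p = 0.892) and did not pass. *Atp5k* was at -0.14 (adjusted p = 0.735).

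**Figure D5:**
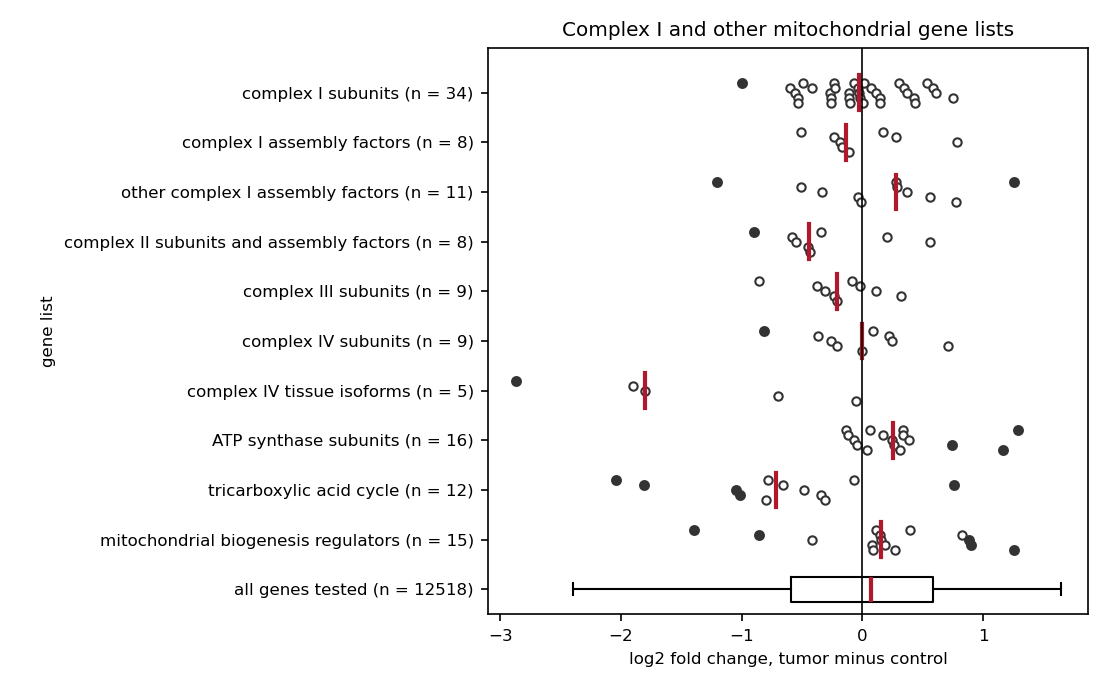
Tested genes of complex I and of other mitochondrial lists, each a point at its log2 fold change of tumor minus control (filled at an adjusted p under 0.05, scattered vertically to be seen), with the median of each list as a red line. The lowest row shows all genes tested as a box of the middle 50% with whiskers at the 5th and 95th percentiles. Complex I subunits lie between -0.998 and 0.75.

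Of 15 regulators of mitochondrial genes, 3 were higher and 2 lower, where 16.3% of all genes were higher and 16.8% lower, and the median was 0.16. *Yy1* was higher, with 6167, 6169 and 6893 in the tumors, against 3343, 3557 and 3549 in the control glands (log2 fold change 0.88, adjusted p = 0.0117 by limma). The 7 complex I genes with the letters AAGATGGC shown above had a median of -0.12, between -0.42 and 0.28, and the 31 matched and tested genes without them had a median of -0.03. *Ndufs1*, whose sequence was not read, is in neither set here or for the other motifs. *Nrf1* was at 0.14 (adjusted p = 0.717) and did not pass. The 6 tested genes with the letters of the NRF1 site had a median of -0.14, against -0.05 in the 32 without. For the ETS letters the median was 0.31 in 6 genes with them, against -0.10 in 32 without, and for the estrogen-related receptor letters it was 0.26 in 2 genes with them, against -0.08 in 36 without.

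*Tfam*, which packages and transcribes mitochondrial DNA, was higher, with 1977, 2509 and 1975 in the tumors, against 1225.5, 1009 and 1219 in the control glands (log2 fold change 0.90, adjusted p = 0.0169 by limma), and so was *Esrrg*, an estrogen-related receptor, with 613, 875 and 659 in the tumors, against 218, 417 and 283 in the control glands (log2 fold change 1.26, adjusted p = 0.0163). The coactivators *Ppargc1a* (199, 209 and 199.8 in the tumors, against 408.5, 414 and 290.1 in the control glands, log2 fold change -0.85, adjusted p = 0.0236) and *Ppargc1b* (529, 275 and 794 in the tumors, against 1506, 1362 and 1026 in the control glands, log2 fold change -1.40, adjusted p = 0.032) were lower. Of the 15 regulators, 5 had every tumor above every control gland and 2 every tumor below, where 27.1% and 23.1% of all genes did so. All 5 called regulators were among these.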

How the data were processed

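RNA of 3 acinar tumors and 3 control glands was hybridized to 6 arrays, 1 per sample. From the scans the authors computed 1 intensity per probe set (MAS 5.0, in the GCOS software, whose release is not given in the sources read) with 500 as the target to which each array was scaled. These deposited intensity values are linear. Detection calls were not used. Precision is limited by the number of arrays, and 3 samples against 3 cannot give an exact permutation p below 0.1.

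Of 45101 probe sets, 64 controls were left out. By the platform annotation, 34945 had 1 gene symbol, 932 several and 9160 none, and only those with 1 symbol were used. Signals under 50 were set to 50 and log2 values taken. Probe sets with at least 100 on at least 3 of 6 arrays were kept (22492 for 12518 genes), and a gene was represented by its probe set of highest mean. The groups were fitted in limma 3.58.1 (R 4.3.3; lmFit, eBayes) without covariates. Tests were 2-sided, p-values were adjusted over all genes by Benjamini and Hochberg, and adjusted values under 0.05 were calls, whatever the fold. Intervals are unadjusted. The steps were tested on simulated data. The alternatives were other floors, scalings, filters, variance models and probe set rules, log2 of the signal plus 50, the methods' t-test, a fold limit, *Ndufa4* left out, the replicate number as a block and each array left out in turn.

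The family and the lists were chosen with earlier results of these data known, and the members of the family were taken by symbol. Signals are given for every assembly factor, the core subunits tested, the 6 highest and 6 lowest subunits by log2 fold change and *Ndufa4*, and in other lists for at most 3 called genes of largest change and 2 that were furthest from passing or ran against the rest, and for tissue isoforms of complex IV. Outside that rule, *Yy1*, *Ppargc1a*, *Nrf1* and *Uqcrq* were named after their values were seen.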

Additional observations from a re-analysis of the deposited data

How the results depend on the processing

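The 8 assembly factors gave 0 calls in either direction under every alternative run, while the 1 call among the subunits depended on the setting. With quantile normalization 2 subunits were lower, *Ndufs1* and *Ndufb3* (adjusted p = 0.0355). With equal array medians, no filter on low signals, the methods' t-test or a 2-fold limit as well, the count of lower subunits was 0. It was also 0 without probe sets marked a, s or x, which left out that of *Ndufs1*. The same held without the array of each group with the highest muscle markers, an alternative chosen after seeing the data. The count was 0 to 1 with each array left out in turn. The count of higher subunits was 1 with no filter (*Ndufc2*, adjusted p = 0.0432) and 1 in that added alternative (*Ndufb2*). *Ndufs1* had an adjusted p of 0.0151 to 0.110 over the alternatives. The methods' t-test called 290 of all genes higher and 283 lower after adjustment, against 2045 and 2098 by limma. The methods' limits on the statistic and the fold, applied here to log2 signals of 1 probe set a gene, passed 1946 genes. They passed 0 subunits and 0 assembly factors. The study applied them to probe sets and also asked for consistent detection calls, which were not used here. With no filter 1703 of 18193 genes were higher and 1564 lower. With equal array medians 3003 were higher and 1676 lower, and with quantile normalization 2344 and 2013.

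The subunits' median of -0.03 turned to 0.21 with equal array medians and to 0.25 in the added alternative, and lay between -0.27 and 0.11 with each array left out, positive without control gland 2 (0.11) or tumor 1 (0.04). The assembly factors' median of -0.14 turned to 0.10 with equal array medians and lay between -0.17 and 0.00 with each array left out (-0.00032 without control gland 2). Equal array medians raised the median of all genes to 0.31. Of 451 comparisons of the 24 named members with an alternative, 427 kept direction and side of the threshold, 8 lost the call, 3 gained one and 13 changed sign. None of the 13 passed the test. With equal array medians they were *Ndufaf1* 0.13, *Ndufaf4* 0.068, *Ndufaf7* 0.053, *Ndufv1* 0.0018 and *Ndufa4* 0.14. Without control gland 2 they were *Ndufaf1* 0.0053 and *Ndufa4* 0.11, and *Ndufa4* was 0.017 without tumor 1 and 0.23 in the added alternative. *Ndufv2* was -0.093 without control gland 3 and -0.047 without tumor 2. *Ndufaf8* was -0.50 without probe sets marked a, s or x and -0.11 as a mean over probe sets. With each array left out, *Ndufaf1* lay between -0.23 and 0.0053, *Ndufv2* between -0.093 and 0.31 and *Ndufa4* between -0.30 and 0.11. The cause was not tested. With the replicate number as a block, the count of lower subunits was 1, that of higher subunits 0 and both counts of assembly factors 0, and the calls over all genes were 1630 higher and 1860 lower. The deviations of same-numbered samples from their group means correlated at -0.222, 0.0206 and 0.0379, so the numbers were not taken as pairing.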

Other observations

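The tricarboxylic acid cycle, which feeds NADH to complex I, was read by 12 tested genes. Of these, 4 were lower and 1 higher, where 16.8% of all genes were lower and 16.3% higher, and the median was -0.72, against 0.07 over all genes. *Ogdh*, a subunit of 2-oxoglutarate dehydrogenase, had 1256.5, 781 and 1264 in the tumors, against 4467, 4357 and 2730.2 in the control glands (log2 fold change -1.81, adjusted p = 0.00453 by limma). *Idh3a*, a subunit of NAD-dependent isocitrate dehydrogenase, had 3383, 3696 and 1263 in the tumors, against 12238, 12641 and 7113 in the control glands (log2 fold change -2.04, adjusted p = 0.0136). *Cs*, citrate synthase, had 4291, 3786 and 4275 in the tumors, against 10634.5, 10367 and 5564 in the control glands (log2 fold change -1.05, adjusted p = 0.0307). In all 3 the tumors lay below the control glands, as they did in 4 of the 12 genes, where 23.1% of all genes did so. *Suclg2*, a subunit of succinyl-CoA ligase, was higher, with 5428, 6173 and 5821 in the tumors, against 3293, 3479 and 3544 in the control glands (log2 fold change 0.75, adjusted p = 0.0207), and *Idh3g* was the furthest from passing, at -0.07 (adjusted p = 0.862). The white fat, brown fat and muscle sums given for each array differed between the same samples, and their part in these values was not tested. Whether this list differs from complex I was not tested either.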
